A study of Vitis vinifera with 6 samples.

Results

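The 7 genes described here encode the activators of the grapevine flavonoid pathway that work as a MYB-bHLH-WDR complex, chosen by their gene identifiers from the 34369 genes with a probe on the array. They comprise 4 R2R3-MYB factors, VvMYBPA1 (VIT_15s0046g00170), VvMYBPA2 (VIT_11s0016g01310), VvMYB5a (VIT_08s0007g07230) and VvMYB5b (VIT_06s0004g00570). The 2 bHLH factors are VvMYC1 (VIT_07s0104g00090) and VvMYCA1 (VIT_15s0046g02560), and the WD40-repeat protein is VvWDR1 (VIT_16s0098g00870). In control leaves 6 of the 7 were measured well above background on every array. With VvWRKY26 over-expressed, VvMYBPA1 had the largest difference of the 7, with a mean 7.28-fold that of control leaves (95% interval 2.75 to 19.3, n = 3 each), although it did not pass the test adjusted over all genes. For the other 6 genes the 95% interval of the log2 fold change included 0.

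The arrays held RNA of young leaves of Vitis vinifera cv. Sultana plantlets grown in vitro. In the 35S:VvWRKY26 group, plantlets 5 weeks old were vacuum infiltrated with Agrobacterium tumefaciens C58C1 carrying the grapevine WRKY factor VvWRKY26 behind the 35S promoter, a strong viral promoter that is active in most plant cells. The control plantlets, titled wild type in the labels, were infiltrated at the same age with the same strain carrying the vector with a non-coding sequence, so both groups went through Agrobacterium. Leaves were collected after 6 days of recovery, and 3 arrays were run per group, each of 1 line. The expression is transient, so only part of the leaf cells may carry the construct, and the lines were selected from 6 plantlets per construct for a high VvWRKY26 level in the 35S:VvWRKY26 group and a low one in the control.

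The complex brings together a MYB factor, which sets which promoters are recognised, a bHLH factor, which binds both partners and DNA, and a WD40-repeat protein, which serves as a scaffold. In plants such complexes switch on the late enzymes of anthocyanin and proanthocyanidin synthesis, and in petunia and Arabidopsis also genes of vacuolar acidification. Proanthocyanidins, or condensed tannins, are polymers of flavan-3-ols that accumulate in grape seeds, skins and young leaves. WRKY factors of the TTG2 type, to which VvWRKY26 belongs, act together with these complexes in Arabidopsis and petunia.

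All levels below are log2 of the array intensity minus log2 of the 75th percentile of that array, so 0 stands for that percentile. Each gene had 1 probe, and levels of different probes are not compared with each other. The 6 arrays fell into 3 scans, each with 1 array of each group, and on the pair of arrays in scan 2 (35S:VvWRKY26 replicate 3 and control replicate 2) 94.9% and 94.7% of the probes were well above background, against 73.9 to 77.6% on the other 4 arrays. By the file headers, all 35S:VvWRKY26 arrays lay at the same position on their slides and all control arrays at another one. If so, position and group cannot be told apart. The headers also give some arrays of different scans the same slide and position, so the positions are uncertain. Across the 34369 genes, 0 passed an adjusted p of 0.05 in limma (0% called), and 355 had an unadjusted p under 0.05 (1.03%). Of the leaf markers, all 6 photosynthesis genes were well above background on all 6 arrays, and their summed log2 level was 8.28 to 8.60 in the 35S:VvWRKY26 group and 8.07 to 8.93 in the control. The 2 phloem markers summed to between -1.37 and -0.74 in the 35S:VvWRKY26 group and between -2.04 and -0.48 in the control. The xylem marker VND4, which the study had listed as higher, lay between -3.60 and -2.35 in the 35S:VvWRKY26 group and between -4.34 and -3.32 in the control, with a difference of 0.80 (95% interval -0.42 to 2.02, and 0.09 to 1.51 with scan as a block). The part of these markers in the results was not tested. In bulk leaf RNA, fewer cells of a type and less RNA per cell cannot be told apart.

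VvWRKY26 itself (VIT_08s0040g03070) had log2 levels of 3.40, 3.69 and 3.32 in the 35S:VvWRKY26 group, against 3.12, 3.25 and 2.57 in the control. The groups did not overlap, but the log2 fold change of 0.49 (SE 0.34, 95% interval -0.35 to 1.33) did not pass limma's test. Lines had been selected on the level of this gene, so the separation is not independent of how the groups were formed. The study checked the over-expression separately from the arrays, by RT-PCR and qPCR. Whether its probe lies within the cloned coding sequence was not tested.

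**Figure D1:**
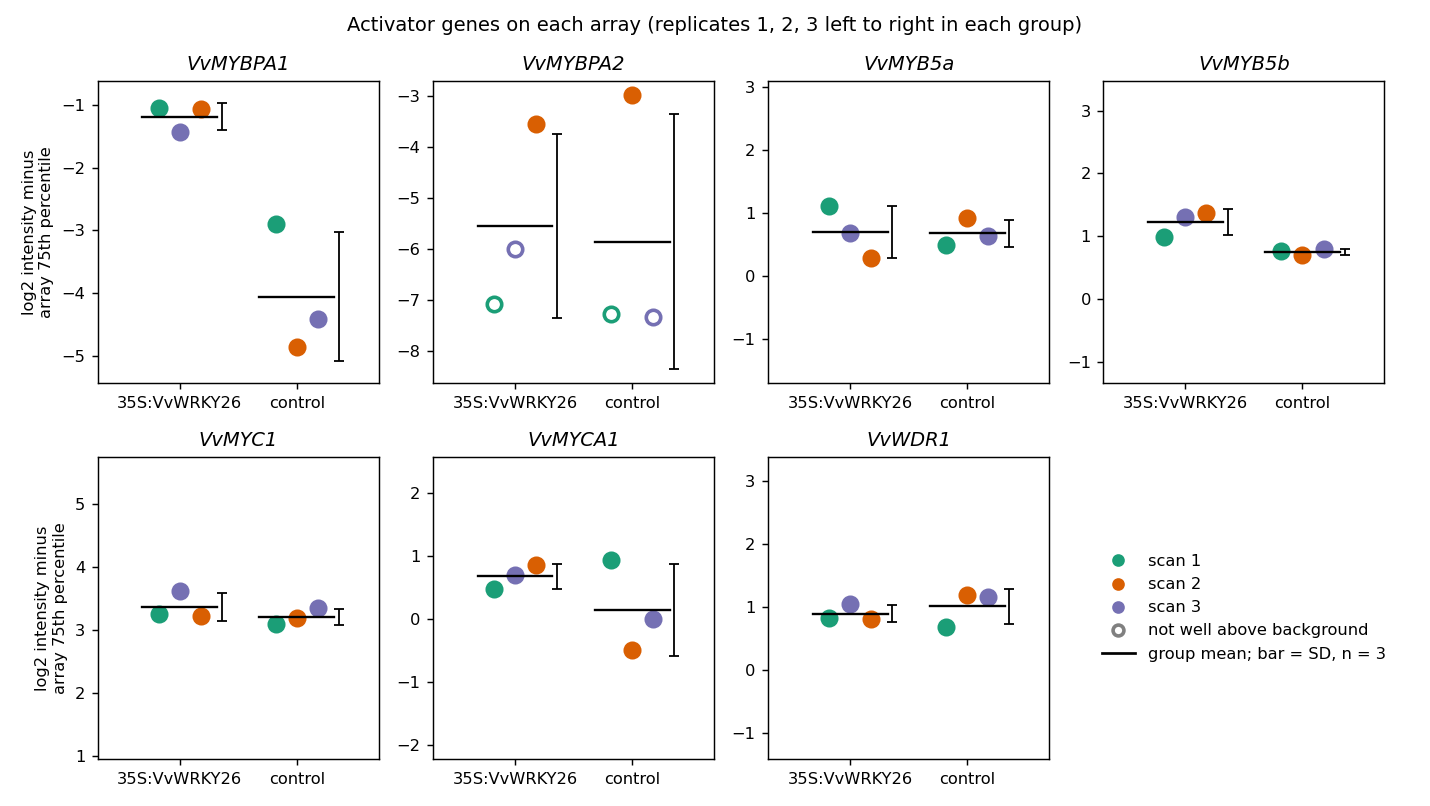
The 7 activator genes on the 6 arrays, as log2 intensity minus the 75th percentile of the array, with 35S:VvWRKY26 left of control in each panel. Points are arrays coloured by scan, open points were not well above background, black lines are group means and bars the SD (n = 3). VvMYBPA1 lay between -1.44 and -1.05 in the 35S:VvWRKY26 group and between -4.86 and -2.90 in the control, and the 2 filled points of VvMYBPA2 are the arrays of scan 2.

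VvMYBPA1, the R2R3-MYB that in grapevine activates the proanthocyanidin enzymes leucoanthocyanidin reductase and anthocyanidin reductase, had intensities of 710, 316 and 680 units in 35S:VvWRKY26 replicates 1, 2 and 3. In control replicates 1, 2 and 3 the intensities were 216, 36.7 and 37.7 units. After scaling, the log2 levels were -1.05, -1.44 and -1.08 in the 35S:VvWRKY26 group, against -2.90, -4.86 and -4.41 in the control. The lowest array of the 35S:VvWRKY26 group thus stood above the highest control array, control replicate 1, which in turn stood well above the other 2 controls. The spot was well above background on all 6 arrays.

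The mean log2 level of VvMYBPA1 was -1.19 ± 0.22 in the 35S:VvWRKY26 group and -4.05 ± 1.02 in the control (SD, n = 3 each), a log2 fold change of 2.86 (SE 0.57, 95% interval 1.46 to 4.27). The unadjusted p from limma was 0.00256 and the adjusted p was 1.00. By the size of the fold change VvMYBPA1 stood at place 10 from the top of the 34369 genes, and by its unadjusted p at place 12. The exact two-sided permutation test gave p = 0.1, the smallest that 3 arrays against 3 allow. VvMYBPA1 was among the genes the study itself listed as higher on these arrays, so its place near the top is not independent evidence. The study also measured VvMYBPA1 by qPCR in control and over-expressing plantlets, values that are not part of these arrays.

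Within scans, the VvMYBPA1 difference between the 35S:VvWRKY26 and the control array was 1.85 in scan 1, 3.78 in scan 2 and 2.97 in scan 3. The sign was the same in all 3 scans, and the smallest difference was in the scan that held control replicate 1. With scan as a block the SE was 0.44 and the 95% interval 1.74 to 3.99, and the adjusted p in limma was 0.876. Without control replicate 1 the log2 fold change was 3.44. Its lowest value over all settings was 1.68, after normexp background correction, which took the median spot signal and added an offset of 50 units. Such an offset draws the fold changes of dim spots towards no difference, and control replicates 2 and 3 had 36.7 and 37.7 units. How much of the lower value came from the offset was not tested. Normexp also moved the median log2 fold change of all genes to -0.33, against -0.05 in the analysis reported here.

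**Figure D2:**
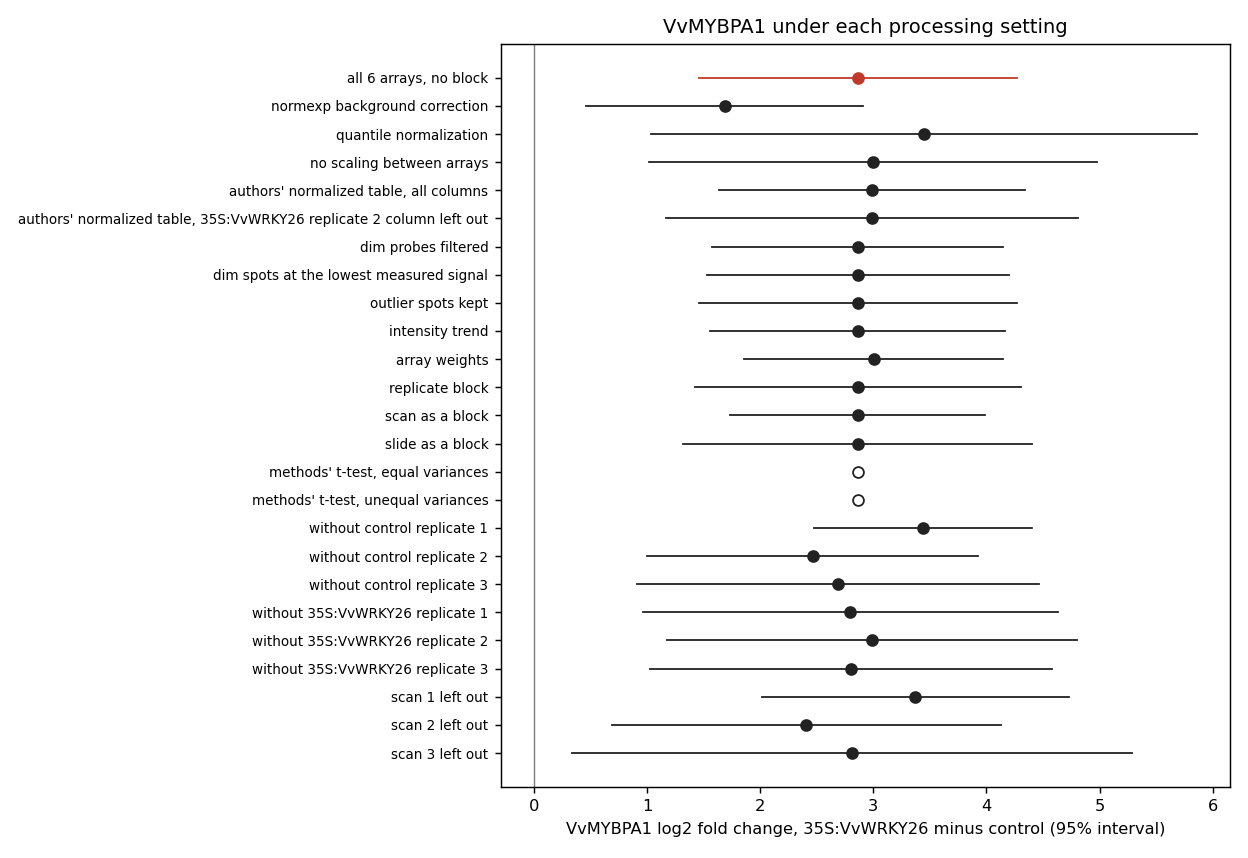
Log2 fold change of VvMYBPA1, 35S:VvWRKY26 minus control, under each processing setting, with the analysis reported here in red at the top. Lines are 95% intervals from limma, and the open points are the methods' t-test, drawn without an interval. All values lay between 1.68 and 3.45 and none of the intervals drawn reached 0.

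VvMYBPA2, which also activates proanthocyanidin synthesis in grapevine, was well above background on only 2 of the 6 arrays, 35S:VvWRKY26 replicate 3 and control replicate 2. Its intensities were 10.9, 13.4 and 122 units in 35S:VvWRKY26 replicates 1, 2 and 3, against 10.4, 135 and 4.94 units in control replicates 1, 2 and 3. The high array of each group was that of scan 2, and on no other array was the spot well above background. The part of the scan in these levels was not tested. Of all genes, 3373 (9.81%) were well above background on exactly the 2 arrays of scan 2. The log2 fold change of VvMYBPA2 was 0.32 (SE 1.49, 95% interval -3.36 to 3.99, exact permutation p = 0.8), and its within-scan differences were 0.20, -0.58 and 1.34. The sign turned in 5 settings, normexp among them. Without a block the interval held a change as large as that of VvMYBPA1, and with scan as a block (-0.80 to 1.44) it did not. As the spot was well above background on 1 array per group, neither fold change is a measured level on both sides.

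VvMYB5a, an R2R3-MYB of grapevine that activates several branches of the flavonoid pathway and is known from early berry development, had log2 levels of 1.12, 0.68 and 0.29 in the 35S:VvWRKY26 group, against 0.50, 0.92 and 0.63 in the control. The groups overlapped, with the highest and the lowest of the 6 levels both in the 35S:VvWRKY26 group. The log2 fold change was 0.01 (SE 0.36, 95% interval -0.86 to 0.89, exact permutation p = 1.0), and its sign turned in 6 settings, normexp among them. The within-scan differences were 0.61, -0.63 and 0.05.

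VvMYB5b, the related factor that in grapevine is expressed later in berry ripening, had log2 levels of 0.99, 1.31 and 1.37 in the 35S:VvWRKY26 group, against 0.76, 0.71 and 0.80 in the control. The groups did not overlap, and the 3 control arrays lay close together. Means were 1.23 ± 0.20 in the 35S:VvWRKY26 group and 0.76 ± 0.05 in the control (SD, n = 3 each). The log2 fold change of 0.47 (SE 0.30, 95% interval -0.26 to 1.20), or 1.38-fold, had an unadjusted p of 0.167 in limma and an exact permutation p of 0.1. By the methods' t-test with equal variances, the single setting in which VvMYB5b had an unadjusted p under 0.05, 2.29% of all genes did. In scans 1, 2 and 3 the difference was 0.23, 0.67 and 0.51.

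VvMYB5b and VvMYBPA1 were the 2 of 7 genes whose groups did not overlap with 35S:VvWRKY26 higher, and none lay wholly lower. Of the 34084 genes with a value on all 6 arrays, 828 (2.43%) were separated in that direction and 772 (2.26%) in the other. The within-group SD of VvMYB5b was 0.15 on the log2 scale, and 2.39% of the genes had a smaller one, against 0.74 for VvMYBPA1.

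Of the bHLH factors, VvMYC1, which in grapevine partners MYB factors in anthocyanin and proanthocyanidin synthesis, had log2 levels of 3.26, 3.62 and 3.22 in the 35S:VvWRKY26 group, against 3.10, 3.20 and 3.35 in the control. The groups overlapped, with a log2 fold change of 0.15 (SE 0.31, 95% interval -0.60 to 0.90, exact permutation p = 0.4). The interval ends at a mean 1.87-fold that of the control. The array of the 35S:VvWRKY26 group was the higher one in all 3 scans, by 0.16, 0.02 and 0.27.

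VvMYCA1, the second bHLH factor of grapevine flavonoid regulation, had log2 levels of 0.47, 0.71 and 0.87 in the 35S:VvWRKY26 group, against 0.94, -0.49 and -0.0016 in the control. The highest of the 6 levels was control replicate 1, and the other 2 controls lay below all 35S:VvWRKY26 arrays. The log2 fold change was 0.53 (SE 0.46, 95% interval -0.59 to 1.66, exact permutation p = 0.4). The difference was -0.47 in scan 1, 1.36 in scan 2 and 0.71 in scan 3. Without control replicate 1 it was 0.93 (95% interval -0.03 to 1.90).

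VvWDR1, the grapevine WD40-repeat protein of the TTG1 type, had log2 levels of 0.83, 1.05 and 0.81 in the 35S:VvWRKY26 group, against 0.69, 1.19 and 1.16 in the control. The groups overlapped, and the lowest of the 6 levels was a control. The log2 fold change was -0.12 (SE 0.32, 95% interval -0.90 to 0.66, exact permutation p = 0.6), and the sign turned without scaling between arrays. Within scans the difference was 0.13, -0.38 and -0.11.

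**Figure D3:**
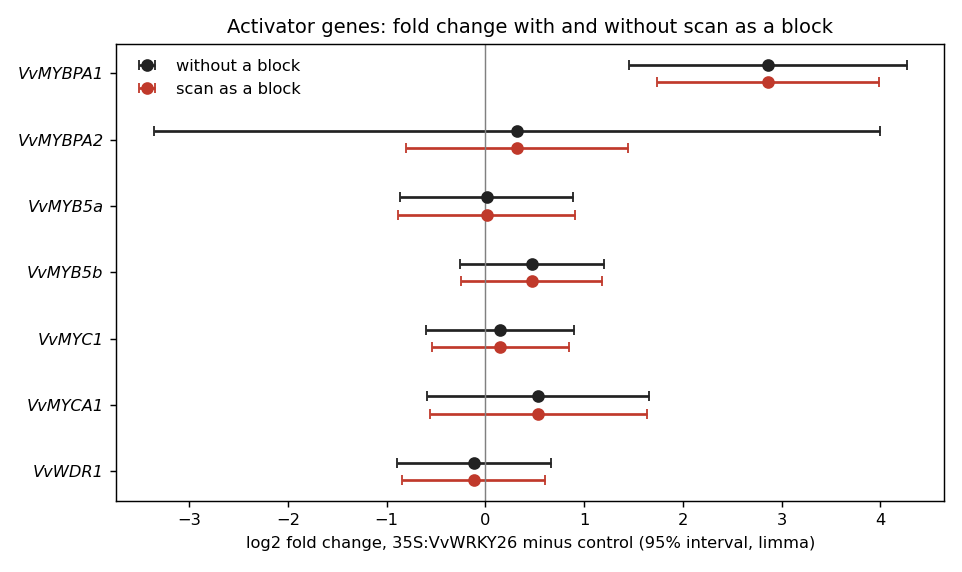
Log2 fold change of the 7 activator genes, 35S:VvWRKY26 minus control, with 95% intervals from limma without a block (black) and with scan as a block (red). The interval of VvMYBPA1 lay above 0 in both, at 1.46 to 4.27 and 1.74 to 3.99, and the intervals of the other 6 genes included 0; the sign of the VvMYBPA2 and VvMYB5a values turned after normexp correction and that of VvWDR1 without scaling.

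With scan as a block, the intervals of VvMYB5a (-0.88 to 0.91), VvMYB5b (-0.24 to 1.18) and VvWDR1 (-0.84 to 0.61) moved little. Of the 7 genes, 1 had an unadjusted p under 0.05 in that fit, VvMYBPA1, with 35S:VvWRKY26 higher, as had 1.71% of all genes. VvMYBPA1, VvMYB5b and VvMYC1 were higher in the 35S:VvWRKY26 array in all 3 scans, and none of the 7 was lower in all 3. Among all genes, 11.6% were higher in all 3 scans and 14.3% lower.

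**Figure D4:**
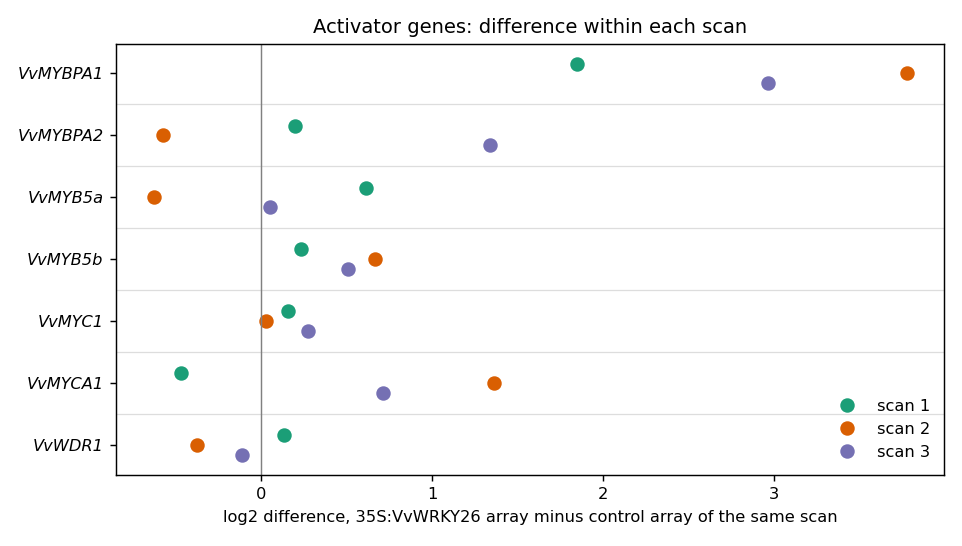
Difference in log2 level between the 35S:VvWRKY26 array and the control array of the same scan, for each activator gene and coloured by scan. VvMYBPA1 ran from 1.85 to 3.78, all above 0, whereas VvMYBPA2, VvMYB5a, VvMYCA1 and VvWDR1 had values on both sides of 0.

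Over the 7 genes the median log2 fold change was 0.32 and 6 were above 0, beside a median of -0.05 and 44.6% above 0 over all genes. That median is the value of VvMYBPA2, well above background on only 1 array per group. The sign of VvMYBPA2, VvMYB5a and VvWDR1 turned in 5, 6 and 2 settings. Without VvMYBPA1 the median was 0.23. Of the 7, 1 had an unadjusted p under 0.05 with 35S:VvWRKY26 higher (0.541% of all genes) and 0 passed the adjusted test.

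The change of VvMYBPA1 was then set against that of each other gene, as the difference of log2 levels within each array, in 6 pairs. Between groups the change of VvMYBPA1 exceeded that of VvMYB5a by 2.85, of VvMYB5b by 2.39, of VvMYC1 by 2.71, of VvMYCA1 by 2.33 and of VvWDR1 by 2.98 on the log2 scale. In each of these 5 pairs the groups did not overlap. The exact permutation p was 0.1 in each, the smallest possible, and therefore above 0.05 before and after adjustment. The same VvMYBPA1 levels enter every pair, so the pairs are not separate results. Of the activators only VvMYBPA1 had been listed as higher by the study, so this contrast is partly fixed in advance. How many of all genes would separate from VvMYBPA1 in this way was not tested. Against VvMYBPA2 the difference was 2.54 with an exact permutation p of 0.4, and the groups overlapped. That pair rests on a probe well above background on 2 of the 6 arrays and does not settle whether the 2 changes differ.

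The pair with VvMYCA1 had the least spread, with SDs of 0.32 in the 35S:VvWRKY26 group and 0.31 in the control, against 1.02 for VvMYBPA1 alone in the control. Control replicate 1 was the highest control for both genes. The same array was also the highest control for chalcone synthase CHS1, the entry enzyme of flavonoid synthesis (-0.82, against -4.45 and -3.34 in control replicates 2 and 3), and for the proton pump gene PH5. It also stood apart from the other controls on genes outside the pathway, with a summed log2 level of the photosynthesis markers of 8.93, against 8.12 and 8.07. The light-harvesting gene LHCB3 (VIT_00s0181g00180) had a log2 level of 4.87 on it, against 0.99 and 1.78. The part of this array's state in the VvMYBPA1 values was not tested.

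Among the pathway genes downstream of such complexes, 17 were examined, of which 16 had a log2 fold change above 0. Their median was 0.85, beside 44.6% above 0 and a median of -0.05 over all genes. As 9 of the 17 had been listed as higher on these arrays by the study, that count is partly fixed in advance. Of the 8 genes not listed as higher by the study, 7 were above 0, with a median of 0.51. These 8 include LDOX, well above background on no array, ANR2, on 1 array, and PH5, which the study described as weakly increased. Of the 17 genes, 8 had an unadjusted p under 0.05 with 35S:VvWRKY26 higher (0.541% of all genes), and 0 passed the adjusted test. The count was 9 with scan as a block, a fit in which 1.71% of all genes were called in that direction. It was 4 without control replicate 2, and 5 without 35S:VvWRKY26 replicate 1 and without replicate 3. With the authors' table it was 12. It was 6 when the column of 35S:VvWRKY26 replicate 2, an average of replicates 1 and 3, was left out of that table. Of the 9 genes that the study had listed as higher on these arrays 7 were among the 8, which is not independent of that choice, and of the other 8 genes only ANM1, described as an anthocyanin membrane protein, was (log2 fold change 0.75, 95% interval 0.01 to 1.50). ANM1 had an unadjusted p under 0.05 in 8 of 24 alternative settings, and its log2 fold change was 0.38 after normexp.

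The branch enzymes included the glucosyltransferase GT1, known in grapevine to act on precursors of galloylated proanthocyanidins, with log2 levels of -0.15, 1.11 and -0.26 in the 35S:VvWRKY26 group, against -2.21, -3.62 and -2.27 in the control. The groups did not overlap, and the log2 fold change was 2.93 (SE 0.60). LAR1 is a leucoanthocyanidin reductase that forms flavan-3-ols. Its log2 levels were -0.32, 0.19 and -0.35 in the 35S:VvWRKY26 group, against -1.92, -1.67 and -0.89 in the control, also without overlap. The log2 fold change of LAR1 was 1.34 (95% interval 0.34 to 2.34). The unadjusted p was under 0.05 in 24 of 24 alternatives for GT1 and in 18 for LAR1. For LAR1 it was not without control replicate 1 or 2 or 35S:VvWRKY26 replicate 2. The study had listed GT1 and LAR1 as higher on these arrays, so their separation and these counts are not independent of that choice. Anthocyanidin reductase forms the epicatechin type of flavan-3-ol, and 3 probes carried that description. VIT_00s0361g00040, well above background on all 6 arrays, had a log2 fold change of 0.85 (95% interval -0.26 to 1.97). VIT_00s0361g00020, the ANR among the genes the study listed as higher, was not well above background in 35S:VvWRKY26 replicate 2, and its log2 fold change of 0.35 (-2.52 to 3.21) was 1.62 without that array and turned below 0 after normexp. VIT_00s0361g00010, described as ANR2, was well above background on 1 of the 3 35S:VvWRKY26 arrays and on none of the control arrays, so its fold change has no measured control level behind it.

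Of the earlier enzymes, the flavonoid 3'-hydroxylase F3'H adds a hydroxyl group to the B ring. Its log2 levels were 3.77, 3.86 and 4.02 in the 35S:VvWRKY26 group, against 1.61, 2.62 and 1.77 in the control. The groups did not overlap and the log2 fold change was 1.89 (SE 0.38). The flavanone 3-hydroxylase F3H2 differed by 1.27 (95% interval 0.08 to 2.47) and CHS1 by 2.62 (0.23 to 5.01). An unadjusted p under 0.05 was kept in 15 of 24 alternatives for F3H2 and in 12 for CHS1. Both lost it without control replicate 2 or 3 or 35S:VvWRKY26 replicate 1 or 3, and CHS1 also without 35S:VvWRKY26 replicate 2. Both also lost it without scaling between arrays and by the methods' t-test with equal or unequal variances. The CHS1 difference was 1.83 without control replicate 2 and 3.64 without control replicate 1. In CHS1 the groups overlapped, and its within-scan differences of 0.98, 4.46 and 2.41 had the same order across scans as those of VvMYBPA1. For F3'5'H, which sets the delphinidin-type pattern, the groups overlapped and the interval of -0.89 to 4.12 included 0, but with scan as a block it was 0.24 to 2.99. Its within-scan differences were 0.80, 3.11 and 0.95, and it was 2.52 without 35S:VvWRKY26 replicate 2. F3'H, F3H2, CHS1 and F3'5'H had all been listed as higher on these arrays by the study, so their differences are not independent of that choice.

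For a laccase, an oxidase gene, no control array had a spot well above background. Its mean in the 35S:VvWRKY26 group was at least 17.8-fold higher, measured against the lowest signal well above background on each control array. SCPL9, a serine carboxypeptidase-like gene, had a log2 fold change of 4.81 (95% interval 2.57 to 7.05), with 2 of the 3 control arrays well above background. It was 3.85 without control replicate 3, the dim one, and 5.53 without control replicate 2. After normexp correction, with its offset of 50 units, the log2 fold change was 1.24 for the laccase, with an unadjusted p above 0.05. For SCPL9 it was 1.37. The study had named both the laccase and SCPL9 as higher on these arrays, so their differences are not independent of that choice. LDOX, leucoanthocyanidin dioxygenase, was not well above background on any of the 6 arrays. The proton pump genes PH5 (0.52) and PH1 (0.50 for VIT_07s0191g00260 and 0.39 for VIT_00s0477g00070) had intervals that included 0.

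**Figure D5:**
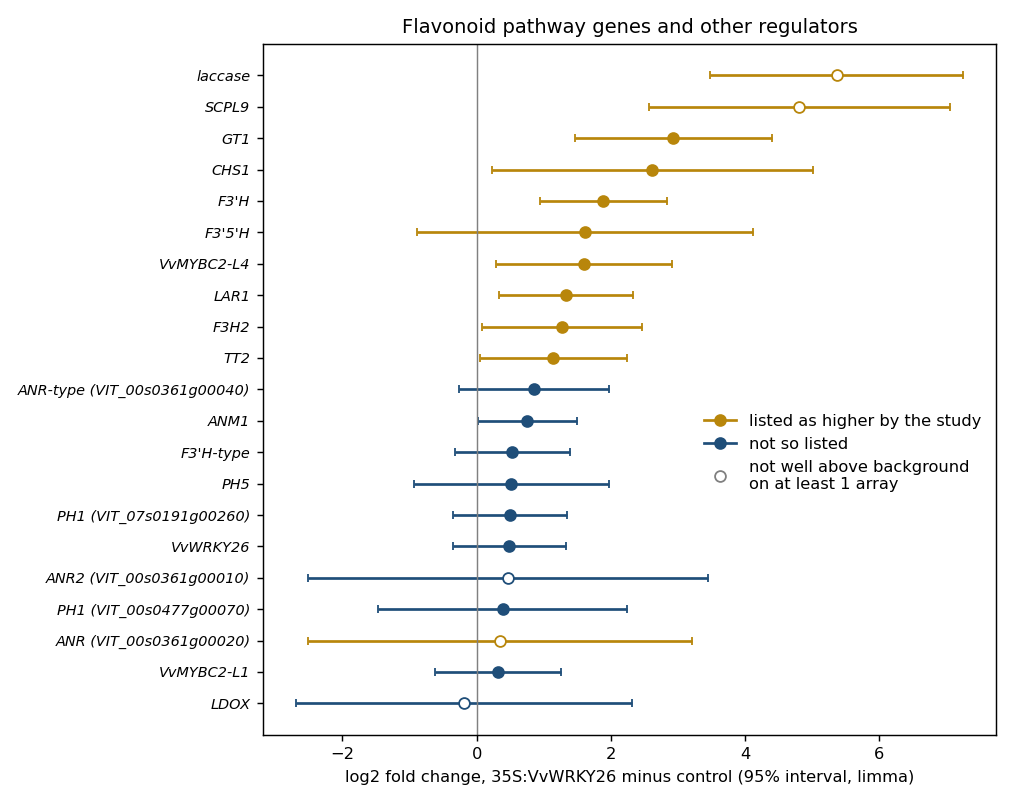
Log2 fold change, 35S:VvWRKY26 minus control, with 95% intervals from limma for the 17 pathway genes and 4 other regulators, in order of size. Open points mark genes not well above background on at least 1 array, whose values are not measured on every array. Genes in gold had been listed as higher on these arrays by the study; the sign of VIT_00s0361g00020, VIT_00s0361g00010 and PH1 (VIT_00s0477g00070) turned after normexp correction and that of LDOX after quantile normalization.

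Among other regulators, the R2R3-MYB repressor VvMYBC2-L4 had a log2 fold change of 1.60 (95% interval 0.29 to 2.92), and the gene described as Transparent testa 2, in Arabidopsis the MYB of seed-coat proanthocyanidins, one of 1.15 (0.05 to 2.24). Both had been listed as higher on these arrays by the study, and in both the groups did not overlap. An unadjusted p under 0.05 was kept in 19 of 24 alternatives for VvMYBC2-L4 and in 13 for Transparent testa 2, which was at 0.65 after normexp. It was lost for VvMYBC2-L4 without control replicate 1 or 35S:VvWRKY26 replicate 2, and for Transparent testa 2 without control replicate 2 or 3 or 35S:VvWRKY26 replicate 1 or 3. The repressor VvMYBC2-L1 overlapped between groups, with 0.32 (-0.62 to 1.26).

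The patterns most like that of VvMYBPA1 over the 6 arrays, out of 23460 probes well above background and free of outlier spots on all of them, belonged to VIT_03s0091g01290, a serine carboxypeptidase (Pearson's r = 0.992), and VIT_04s0008g06000, VvERF045 (r = 0.991). The study had listed VIT_03s0091g01290 as higher on these arrays. With r of at least 0.9 to VvMYBPA1 there were 148 probes (0.631%). For the other 5 measured activators that number ran from 27 (0.115%) for VvMYB5a to 696 (2.97%) for VvWDR1. For the other 5 measured activators the 2 most similar probes had r from 0.976 to 0.998. These values describe 6 arrays that share scan and group, and the differences between groups and scans enter them directly.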

How the data were processed

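RNA of 3 plantlet lines per group was labelled with Cy3 and hybridised to 1-colour Agilent arrays. The authors deposited, per array, spot intensities from Feature Extraction 10.5.1.1 (the background-subtracted processed signal, with marks for spots well above background, saturated or outliers), and a series table of intensities that had been scaled to the 75th percentile. In that table the column of 35S:VvWRKY26 replicate 2 equals the average of its 2 neighbours, replicates 1 and 3, within 0.02 units in 34369 of 34369 rows, so it served only as an alternative. No column belonging to another sample was met.

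Here the processed signal was divided by its 75th percentile on the same array and converted to log2, over 34369 gene probes. The 1417 control spots were left out, outlier spots were treated as missing and no filter on dim probes was set. The marker sums kept outlier spots, which concerns the PSBS spot of control replicate 3 in the photosynthesis sum. No activator spot was an outlier and no spot was saturated. The comparison used lmFit and eBayes of limma 3.58.1 under R 4.3.3, two-sided and without covariates, with Benjamini-Hochberg adjustment over all gene probes at 0.05, and with exact permutation tests over the 20 splits of 6 arrays. The code was run on simulated data with planted changes larger than that of any activator here. Its pass mark was set at a smaller spread than that of these arrays. That run therefore does not show how well changes of the size seen here are found. Labels do not say whether lines shared a day or culture, so p-values measure the spread between these arrays. The number of arrays limits the precision. Scan numbers and positions come from the file headers, which give control replicates 1 and 2 the same slide and position although their scans differ, and likewise 35S:VvWRKY26 replicates 1 and 3.

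The text names the activators, VvWRKY26, the pathway and regulator lists and the 2 probes most like VvMYBPA1. Activators and lists were chosen with earlier results of these data known. Alternatives covered background correction, normalization, the deposited table, dim and outlier spots, variance prior, array weights, blocks, the methods' t-test and leaving out arrays. Background correction was normexp with an offset of 50 units, which draws the fold changes of dim spots towards no difference. Gene names are the study's, and the 3 anthocyanidin reductase probes are told apart by identifier. Of the 7 symbols 4 were listed in the RefSeq table, of another assembly, so no coordinates or sequences are given.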

Additional observations from a re-analysis of the deposited data

How the results depend on the processing

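With 3 arrays per group, 1 probe per gene and 0 genes past the adjusted threshold in any of the 24 alternatives, single fold changes are bounded mainly by their intervals. VvMYBPA1 kept its direction and an unadjusted p under 0.05 in 24 of 24 alternatives (log2 fold change 1.68 to 3.45, and 2.46 to 3.44 with 1 array left out). VvMYB5b (0.33 to 0.60), VvMYC1 (0.02 to 0.29) and VvMYCA1 (0.12 to 1.04) also kept their direction. The dim filter removed VvMYBPA2, ANR2 and LDOX. Leaving out each scan in turn was chosen after seeing the data. The median of all genes was -0.33 after normexp, 0.08 without scaling and 0.10 in the authors' table, against -0.05. The causes of the changes below were not tested.

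VvMYBPA2 turned to -0.66 after normexp correction and -0.19 with scan 3 left out, and ran from -0.68 to 1.76 with 1 array left out, below 0 without control replicate 1 or 3 or 35S:VvWRKY26 replicate 3. VvMYB5a turned to -0.050 after normexp, -0.29 with scan 1 and -0.0071 with scan 3 left out, and ran from -0.20 to 0.21 with 1 array left out, below 0 without control replicate 1 or 3 or 35S:VvWRKY26 replicate 1. VvWDR1 turned to 0.017 without scaling and 0.012 with scan 2 left out. The number of activators with an unadjusted p under 0.05 was 2 by the methods' t-test with equal variances (VvMYBPA1 and VvMYB5b) and 1 in the other settings. The number whose groups did not overlap was 1 after normexp, 4 with scan 1 or scan 2 left out, and 2 to 4 with 1 array left out (4 without control replicate 1). Full separation is easier to reach with fewer arrays, so counts with arrays left out do not compare with that of all 6 arrays. How many of all genes were separated in those settings was not tested. Of the pathway genes, 8 had an unadjusted p under 0.05. The count was 5 without scaling, 4 with scan 2 left out, 4 to 7 with 1 array left out and 9 with scan as a block. It was 12 with the authors' table, and 6 with the column of 35S:VvWRKY26 replicate 2 left out of it.

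ANR (VIT_00s0361g00020) turned to -0.0028 after normexp and -0.17 with scan 2 left out (-0.52 to 1.62 with 1 array left out), and ANR2 to -0.54 after normexp, -0.36 with array weights and -0.13 with scan 2 left out (-0.70 to 1.38). LDOX turned to 0.12 after quantile normalization, 0.30 and 0.11 in the authors' table with and without the column of 35S:VvWRKY26 replicate 2, and 0.21 with dim spots at the lowest measured signal (-1.02 to 0.63 with 1 array left out). PH1 (VIT_00s0477g00070) turned to -0.41 after normexp (-0.16 to 1.03).

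The replicate numbers did not pair the arrays: deviations of same-numbered arrays correlated at 0.63, -0.28 and -0.41, and those of arrays in the same scan at 0.63, 0.69 and 0.54. With the replicate block, 246 genes had an unadjusted p under 0.05, against 355 without it, and the interval of VvMYBPA1 was 1.42 to 4.31. Over all genes that count ran from 145 without scaling to 1822 with scan as a block. It was 396 after normexp, 855 after quantile normalization and 628 with an intensity trend. With array weights it was 797, and with slide as a block 537. The authors' table gave 1272, and 324 with its column of 35S:VvWRKY26 replicate 2 left out. By the methods' t-test it was 787 with equal and 568 with unequal variances. The count was 446, 621 and 200 with scan 1, 2 and 3 left out, and 219 to 1213 with 1 array left out.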
